A study of Mus with 6 samples.

Results

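Compound K (CK) is a ginsenoside that gut bacteria form from ginseng saponins. Brains of mice that received CK together with the memory-impairing agent SCOP were compared with brains of saline-treated mice (Control) on 4 Affymetrix whole-transcript arrays, 2 per group, out of 6 arrays in the series. The animals were ICR mice, an outbred stock. The CK group received 40 mg/kg CK by gavage and 2 mg/kg SCOP intraperitoneally. The Control group received 0.9% saline by gavage and neither agent. The third group of the series, 2 mg/kg SCOP alone on 2 arrays, entered no test here. The labels and the study's methods write SCOP as scopoletin hydrobromide, while the antagonist used to impair memory in mice is scopolamine, a different compound from the coumarin scopoletin. Which of them was injected is not settled here. No injection of vehicle is described for the Control mice, so the effects of CK, of SCOP and of the injection cannot be told apart in this comparison. All brains were taken after behavioural tests. The labels call the arrays of a group biological replicates, but the sources used here do not say whether an array holds 1 mouse or a pool.

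All probe sets with a single gene symbol entered the comparison, which gave 19572 of the 22206 transcript probe sets and 19505 genes. A level is the deposited log2 value, so a difference of 1 is a doubling. Levels below 5.06 are called dim. This level was taken from the negative control probes, as the 95th percentile on each array averaged over the 4 arrays, and 49.5% of the probe sets were dim on all 4 arrays. Control replicate 2 stood apart. It lay at 29.0 on the first principal component, which held 44.3% of the variance, while the other 3 arrays lay between -10.5 and -7.97. Its median level was 4.77, against 4.90 to 4.91 on the others. The values obtained without it are given below where they matter. Defining markers of brain tissue were well above the dim level in both groups. Syp, the synaptic vesicle protein synaptophysin, measured 11.42 and 11.42 in CK, and 11.45 and 11.39 in Control.

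Muscarinic antagonists such as scopolamine block acetylcholine receptors, through which cholinergic neurons support attention and memory. CK is studied as an antioxidant and neuroprotective agent. The study linked it to the pathway of Nrf2, a transcription factor of antioxidant genes that Keap1 holds in check. Brain tissue is a mixture of neurons, glia, vessels and blood, so fewer cells of a type and less RNA per cell cannot be told apart in any value that follows.

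No gene separated the brains of the CK group from those of the Control group beyond the threshold over all probe sets, and most differences were small. No probe set passed an adjusted p of 0.05 in limma (0.0% of those tested), and the smallest adjusted p was 0.677. At an unadjusted p under 0.05, 636 probe sets (3.25%) were higher and 376 (1.92%) lower in CK, where the threshold alone gives 978.6 in all. Every count of list members at this threshold below is to be read beside these shares. Requiring in addition a difference of at least 1.5-fold (the screen) left 133 probe sets with higher values (0.68%) and 75 with lower values (0.383%), of which 33 were not dim. The lowest CK array lay above the highest Control array for 3599 probe sets (18.4%), and the highest CK array lay below the lowest Control array for 3076 (15.7%). The median difference was 0.01, and 79.7% of the probe sets differed by less than 0.25 on the log2 scale. With 2 arrays a group an exact permutation test of a single gene cannot give a p below 0.333. In simulated data of the same size the test called none of 200 probe sets changed by 1 on the log2 scale, 88.5% of those changed by 1.5 and 97.5% of those changed by 2. The simulated data held 200 equal changes and no array that stood apart. Adjustment is stricter where fewer probe sets change, so these shares do not carry over to this comparison. The genes named below are therefore described by their values. The share of probe sets at an unadjusted p under 0.05 that were higher in CK, 62.8%, was 36.1% with medians centred, 50.7% with quantile normalization, 51.5% with cyclic loess and 47.2% without Control replicate 2, so the values give no direction to the whole transcriptome.

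**Figure D1:**
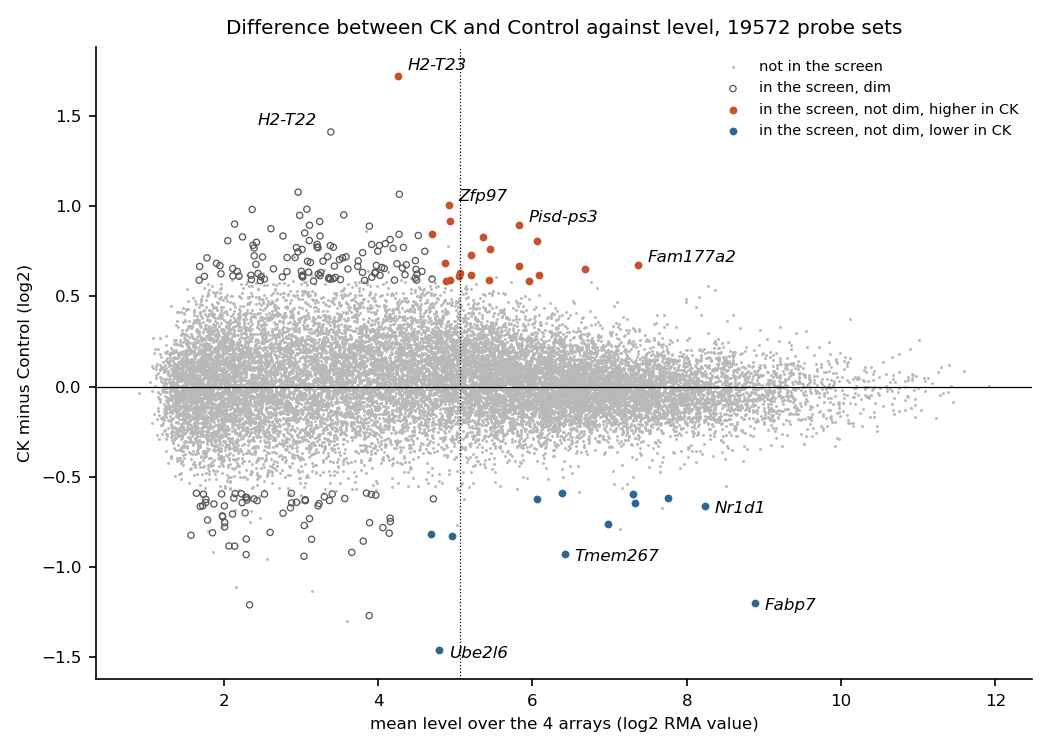
Difference of CK minus Control (log2) against the mean level over the 4 arrays (log2 RMA value), 1 point per probe set. Filled points are the 33 probe sets in the screen that were not dim, orange where CK was higher and blue where CK was lower, open circles are the dim ones, and the dotted line is the dim level of 5.06. Fabp7 stands alone among the bright probe sets with a single gene symbol, the only ones shown.

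Lower values in CK in the screen that were not dim and did not overlap were found for 10 named genes, of which Fabp7 was the brightest and had the smallest unadjusted p, 6.92e-05. Fabp7 encodes the brain fatty acid binding protein of radial glia and astrocytes. It measured 8.25 and 8.32 in CK, against 9.44 and 9.52 in Control, a difference of -1.20 (standard error 0.14, adjusted p of 0.677 in limma). The gap between the groups was about as wide on each pair of arrays, and the difference was -1.16 to -1.24 when each array was left out in turn. Fabp7 was the only probe set to pass when dim probe sets were left out (adjusted p of 0.04 over 9437 probe sets) or when only the brighter probe sets were tested (adjusted p of 0.0459 over 9786). It was also the only one to pass with a variance trend in limma (adjusted p of 4.78e-05). No probe set passed with medians centred, quantile normalization, cyclic loess, robust eBayes, a replicate block or all 6 arrays in the fit. With the replicate block the adjusted p of Fabp7 was 0.496 in limma. Other fatty acid carriers showed no such gap. Fabp3 measured 9.23 and 9.24 in CK, and 9.27 and 9.44 in Control. Fabp5 measured 6.95 and 6.55 in CK, and 6.95 and 6.81 in Control. Of the 13 measured genes of the fatty acid binding list, 1 was lower and none higher at an unadjusted p under 0.05, and the list median was -0.10, against 0.01 over all probe sets.

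The astrocytes in which Fabp7 is found gave no shift of the same size. Of 17 measured astrocyte markers none differed at an unadjusted p under 0.05, 3 had both CK arrays above and 3 had both below the Control arrays (17.6% each, against 18.4% and 15.7% of all probe sets), and their median was 0.07. Gja1, the astrocyte gap junction protein connexin 43, measured 8.51 and 8.53 in CK, and 8.56 and 8.71 in Control. Of 20 neural precursor and neuroblast genes none differed at that threshold either, with a median of 0.05.

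Nr1d1 encodes REV-ERBα, a repressor within the circadian clock. It measured 7.98 and 7.84 in CK, against 8.58 and 8.55 in Control, a difference of -0.66 (standard error 0.14, adjusted p of 0.935 in limma). Both CK arrays were below both Control arrays by more than the replicates differed. Per2, a period gene of the clock's negative limb, measured 5.43 and 5.16 in CK, against 4.92 and 4.75 in Control, a difference of 0.46 with both Control arrays dim. Per3 and Tef, 2 further clock outputs, differed by 0.23 and 0.29 with no overlap, and by 0.13 for Per3 without Control replicate 2 and 0.15 for Tef without Control replicate 1. The remaining genes of the list varied around 0. Of 21 measured clock genes 1 was lower and 1 higher at an unadjusted p under 0.05, and the median was 0.01. The sources used here do not state the hour at which the brains were taken, so its part in these values was not tested.

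Ube2l6, the conjugating enzyme for the interferon-induced modifier ISG15, measured 3.87 and 4.25 in CK, against 5.77 and 5.28 in Control. Both CK values were dim, so the measured difference of -1.46 (standard error 0.22) rests on values at the level of negative controls. Against the level set in the same way from the 2 CK arrays alone, the CK group was at least 1.39-fold lower. All bounds that follow use the arrays of the dim group. Ninj2, an adhesion protein of glia and nerve, measured 4.23 and 4.33 in CK, against 5.25 and 4.95 in Control. Upp2, a uridine phosphorylase, measured 4.26 and 4.83 in CK, against 5.47 and 5.27 in Control. In both genes the CK values were dim and the groups did not overlap, with bounds of at least 1.04-fold and 1.25-fold lower.

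Spi1, the myeloid transcription factor PU.1 that microglia require, measured 7.10 and 6.92 in CK, against 7.34 and 7.86 in Control. Its difference of -0.59 was -0.34 without Control replicate 2. Ctss, the lysosomal protease cathepsin S of microglia, measured 6.88 and 6.89 in CK, against 7.24 and 7.65 in Control, a difference of -0.56 that was -0.36 without Control replicate 2. Ctss was the only one of 17 microglia markers at an unadjusted p under 0.05. The microglia list as a whole had a median of -0.09 that was 0.06 without Control replicate 2 and -0.32 without Control replicate 1, so its direction depended on which Control array was kept.

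The other lower genes were Plekha5, Tmem267, Ccn1 and H2bc18. Plekha5, which encodes a pleckstrin homology domain protein, measured 7.19 and 6.81 in CK, against 7.67 and 7.63 in Control. Tmem267 measured 5.50 and 6.42 in CK, against 6.96 and 6.81 in Control, and its difference of -0.93 was -0.47 without CK replicate 1. Ccn1, a matricellular protein switched on early after stimulation, measured 5.69 and 5.82 in CK, against 6.29 and 6.45 in Control. H2bc18, a histone H2B gene with near-identical copies, measured 6.23 and 5.94 in CK, against 6.36 and 6.98 in Control, and its difference of -0.59 was -0.27 without Control replicate 2. In all 10 genes that met the size rule in this direction the adjusted p lay between 0.677 and 0.935.

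**Figure D2:**
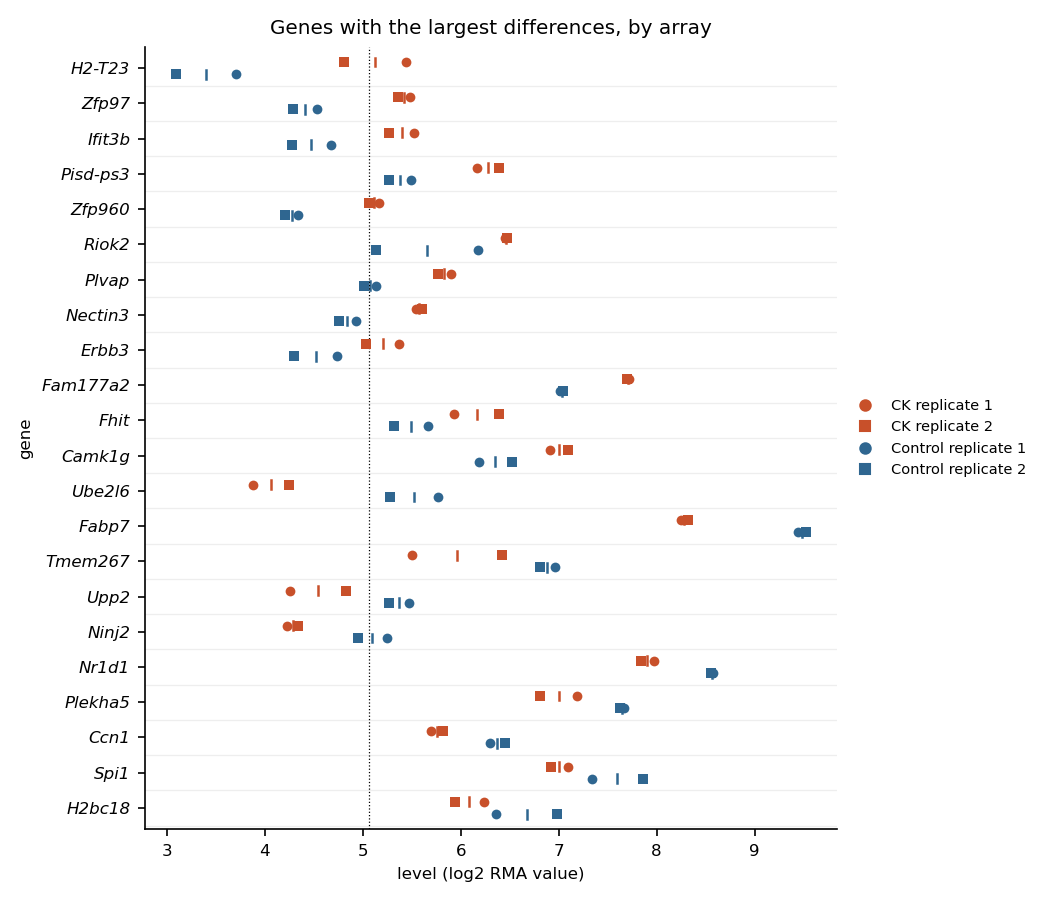
Level (log2 RMA value) of the 12 genes with the largest higher values and the 10 with the largest lower values in CK, on each array. Orange is CK and blue is Control, circles are replicate 1 and squares replicate 2, short vertical bars are group means, and the dotted line is the dim level of 5.06. Fabp7 shows 8.25 and 8.32 in CK, and 9.44 and 9.52 in Control.

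Higher values in CK, most of them dim, were measured for neighbouring nonclassical MHC class I genes, whose products are recognised by T cells or NK cells. H2-T23, which encodes Qa-1, measured 5.44 and 4.80 in CK, against 3.71 and 3.09 in Control, a difference of 1.72 (standard error 0.28, adjusted p of 0.935 in limma). Both Control values and CK replicate 2 were dim, and the bound was at least 1.04-fold higher, so the size of the difference is not settled. H2-T22, recognised by gamma delta T cells in mice, measured 3.95 and 4.24 in CK, against 2.70 and 2.66 in Control. It had the smallest unadjusted p of all probe sets, 5.56e-05, but was dim on all 4 arrays and has no fold. These genes are adjacent in the RefSeq order of protein-coding genes. Class I genes share sequence, so probes may read more than 1 of them.

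Of 25 measured members of the class I list 4 were higher and none lower at an unadjusted p under 0.05, against 3.25% and 1.92% of all probe sets. H2-M9 and H2-Q10 joined H2-T23 and H2-T22 there with values that were dim in both groups. The median was 0.13, with 8 members that had both CK arrays above (32.0%, against 18.4% of all probe sets) and 1 that had both below the Control arrays (4.0%, against 15.7%). It was 0.06 with medians centred and 0.05 without CK replicate 2. H2-K1, a classical class I heavy chain, measured 6.95 and 7.17 in CK, and 6.72 and 7.0 in Control. H2-D1, the other classical chain measured, showed 6.27 and 6.49 in CK, and 6.15 and 6.71 in Control. B2m, the light chain that all class I molecules need, measured 9.56 and 9.49 in CK, and 9.48 and 9.65 in Control. In each of the last 3 genes the groups overlapped.

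Interferon-stimulated genes, which cells switch on to restrict viruses, leaned to higher values in CK. Of 43 measured members 8 were higher and 1 lower at an unadjusted p under 0.05, against 3.25% and 1.92% of all probe sets. Both CK arrays were above the Control arrays for 20 members (46.5%, against 18.4% of all probe sets). Both were below the Control arrays for 4 of the 43 members, against 15.7% of all probe sets. The list median was 0.15, with 0.11 to 0.21 when each array was left out in turn and 0.08 with medians centred. Only 8 of the 43 were not dim. Ifit3b, an antiviral tetratricopeptide protein, measured 5.53 and 5.26 in CK, against 4.67 and 4.27 in Control, with dim Control values and a bound of at least 1.25-fold higher. Its neighbour Ifit3 measured 5.57 and 5.66 in CK, against 5.21 and 4.99 in Control. Ifit3 and Ifit3b are close copies, so reads of one probe set may come from the other. Irgm1, an immunity-related GTPase, measured 5.16 and 5.12 in CK, against 4.50 and 4.68 in Control, with both Control values dim. In these members each CK array was above each Control array.

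Other interferon genes were dim in both groups. Gbp3, a guanylate-binding protein, measured 4.57 and 4.41 in CK, against 3.89 and 3.50 in Control. Igtp, a further immunity-related GTPase, measured 2.71 and 2.59 in CK, against 2.04 and 2.14 in Control. Irf9, the DNA-binding subunit of the interferon response complex, measured 4.58 and 4.99 in CK, against 4.16 and 4.20 in Control. Ifi27l2a and Iigp1 completed the 8, with differences of 0.47 and 0.51. The lower member at that threshold was Isg20, an exonuclease, with 3.38 and 3.02 in CK, against 4.29 and 3.95 in Control. Ube2l6, described above and not on the list, was also lower in CK. Ifit3, Irgm1, Irf9, Ifi27l2a, Iigp1, H2-K1, H2-D1, B2m, Gja1 and Fabp3 were named after their values were seen. Among inflammatory cytokines and NF-kB targets 2 of 28 were higher and none lower at that threshold, against 3.25% and 1.92% of all probe sets. The 2 were Nfkb2 (0.57) and Ccl2 (0.56, and 0.22 without CK replicate 1), both dim.

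**Figure D3:**
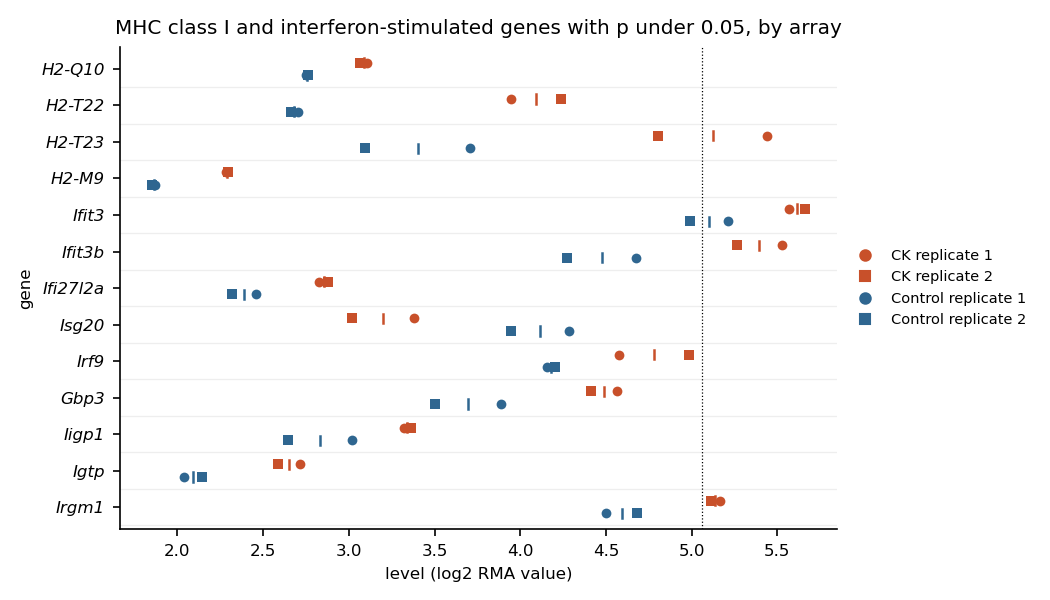
Level (log2 RMA value) of the 4 MHC class I genes and the 9 interferon-stimulated genes at an unadjusted p under 0.05, on each array. Orange is CK and blue is Control, circles are replicate 1 and squares replicate 2, short vertical bars are group means, and the dotted line is the dim level of 5.06. All but Isg20 were higher in CK, and 9 of the 13 stayed left of the dotted line on every array.

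Of the further genes with larger values in CK, some lay beside each other. Zfp97 and Zfp960, neighbouring zinc finger genes, measured 5.48 and 5.36, and 5.17 and 5.06, in CK. In Control Zfp97 measured 4.53 and 4.28, and Zfp960 4.34 and 4.20, all dim. Riok2, a kinase of small ribosomal subunit assembly that lies 4 protein-coding genes beyond Zfp97, measured 6.45 and 6.48 in CK, against 6.18 and 5.14 in Control. Its difference of 0.81 was 0.29 without Control replicate 2. No gene between Zfp97 and Riok2 was measured.

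Fam177a2 measured 7.72 and 7.69 in CK, against 7.02 and 7.05 in Control, a difference of 0.67 (standard error 0.14). This was the brightest of the 12 genes with higher values, with arrays of a group within 0.1 of each other. Its neighbours Srp54a, Srp54b and Srp54c, copies of the gene for the signal-recognition particle GTPase, were higher too. Srp54a measured 8.63 and 8.64 in CK, against 8.06 and 8.14 in Control. Srp54b measured 8.42 and 8.41 in CK, against 7.86 and 7.97 in Control. Srp54c measured 8.40 and 8.27 in CK, against 7.90 and 7.90 in Control. The next genes on that side, Ppp2r3c and Prorp, differed by 0.08 and -0.02. These copies share sequence, so they are not independent measurements, and they were named after their values were seen.

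Plvap, the diaphragm protein of fenestrated capillaries such as those of the choroid plexus, measured 5.90 and 5.76 in CK, against 5.13 and 5.01 in Control, a difference of 0.76 (standard error 0.15). Nectin3, an adhesion molecule of adherens junctions and synapses, measured 5.54 and 5.60 in CK, against 4.93 and 4.75 in Control. Erbb3, a neuregulin receptor, measured 5.37 and 5.03 in CK, against 4.74 and 4.30 in Control. In each of them the groups did not overlap, and the Control values of Nectin3 and Erbb3 were dim, with bounds of at least 1.41-fold and 1.09-fold higher.

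Camk1g, a calcium and calmodulin-dependent kinase of neurons, measured 6.92 and 7.10 in CK, against 6.18 and 6.52 in Control. Fhit, a diadenosine triphosphate hydrolase, measured 5.93 and 6.39 in CK, against 5.66 and 5.32 in Control. Pisd-ps3, a pseudogene of phosphatidylserine decarboxylase that may share probes with its parent, measured 6.16 and 6.39 in CK, against 5.50 and 5.27 in Control. All 12 genes had an adjusted p of 0.935 in limma, with standard errors between 0.14 and 0.31.

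The SCOP arrays, which also received SCOP but no CK, lay on different sides for different genes. For 9 of these 22 genes both SCOP arrays were nearer the CK mean, for 5 both were nearer the Control mean, and for 8 they were split. Fabp7 measured 9.36 and 9.79 on the SCOP arrays, near Control. Fam177a2 measured 6.95 and 7.06 there, also near Control. Ninj2 measured 4.17 and 4.22 there, near CK. H2-T23 measured 4.53 and 4.94 there, nearer CK. SCOP replicate 2 stands apart from the other 5 arrays of the series, so these values are given side by side with no test.

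Among genes of the cholinergic system, the target of muscarinic antagonists, no bright member reached an unadjusted p under 0.05. Chrm1, the main muscarinic receptor of cortex and hippocampus, measured 7.44 and 7.36 in CK, against 7.68 and 7.49 in Control. Chrm4, the receptor of striatal neurons, measured 6.30 and 6.36 in CK, against 6.55 and 6.63 in Control. Both had the CK arrays below the Control arrays, by 0.19 and 0.26, at unadjusted p values of 0.25 and 0.108 in limma, and the Chrm1 difference of -0.19 was -0.090 without Control replicate 1. Chrm2 and Chrm3 overlapped between the groups, with differences of 0.05 and 0.07. Chrm5, a receptor of dopamine neurons, was higher at 3.76 and 4.03 in CK, against 3.35 and 3.02 in Control, but dim on all 4 arrays. Of 21 measured muscarinic and nicotinic receptor genes, Chrm5 was the only one at an unadjusted p under 0.05.

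Chat, the enzyme that makes acetylcholine, measured 2.94 and 3.16 in CK, against 2.46 and 1.89 in Control, again dim throughout. Its difference of 0.88 was 0.59 without Control replicate 2. Slc18a3 and Slc5a7, the vesicular acetylcholine and choline transporters, overlapped between the groups, with differences of 0.31 and 0.42 that were 0.11 without CK replicate 2 and 0.047 without Control replicate 2. No other gene of the 12 on the acetylcholine synthesis, transport and breakdown list differed at that threshold, and its median was 0.02.

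Immediate early genes, which neurons switch on with activity, had a median near 0. Of 46 measured members 1 was higher and 3 lower at an unadjusted p under 0.05, 9 had both CK arrays above (19.6%, against 18.4% of all probe sets) and 13 both below the Control arrays (28.3%, against 15.7%), and the median was 0.00. Beside Ccn1 the lower members were Sik1, a kinase that restrains CREB signalling, and Npas4, a transcription factor of inhibitory synapse formation. Sik1 measured 5.22 and 5.28 in CK, against 5.64 and 5.92 in Control. Npas4 measured 4.29 and 4.62 in CK, against 4.96 and 4.93 in Control, dim on all 4 arrays. Ier3, a stress-response gene that lies in the MHC region, was higher at 5.15 and 5.61 in CK, against 4.84 and 4.66 in Control. Both Control values of Ier3 were dim, with a bound of at least 1.24-fold higher.

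Of the 9 measured genes whose proteins the study followed, none differed at an unadjusted p under 0.05, and their median was 0.00. App, the amyloid precursor, measured 10.52 and 10.42 in CK, and 10.47 and 10.30 in Control. Bace1, the beta-secretase, measured 6.72 and 6.64 in CK, and 6.86 and 6.33 in Control. Ide, the insulin-degrading enzyme that also clears amyloid beta, measured 6.67 and 6.64 in CK, against 6.73 and 7.0 in Control. Only the last of these had no overlap, and its difference of -0.21 was -0.07 without Control replicate 2.

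Nfe2l2, which encodes Nrf2, measured 4.69 and 4.41 in CK, against 5.0 and 4.82 in Control, dim on all 4 arrays and with no overlap (difference -0.36, unadjusted p of 0.0653 in limma). Keap1, its inhibitor, measured 6.38 and 6.78 in CK, and 6.44 and 6.66 in Control. Hmox1, the heme oxygenase that Nrf2 switches on, measured 5.39 and 5.05 in CK, and 5.37 and 5.65 in Control. Of 42 measured Nrf2, Keap1 and antioxidant genes 1 was higher and 1 lower at an unadjusted p under 0.05, with a median of -0.03. The higher one was Mafg, a small Maf partner of Nrf2, at 5.19 and 5.16 in CK, against 4.69 and 4.49 in Control. Both Control values of Mafg were dim, with a bound of at least 1.08-fold higher. The lower one was Osgin1, an oxidative stress growth inhibitor, dim on all arrays, with a difference of -0.56.

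Cycs, the electron carrier cytochrome c that also triggers apoptosis, measured 9.64 and 9.40 in CK, against 9.73 and 9.76 in Control, a difference of -0.23 at an unadjusted p of 0.178 in limma that was -0.11 without CK replicate 2. Of 28 apoptosis genes 2 were higher and none lower at an unadjusted p under 0.05, against 3.25% and 1.92% of all probe sets. The 2 were Casp9 (0.58) and Apaf1 (0.57), which form the apoptosome, both dim. Dlg4, the postsynaptic scaffold PSD95, measured 10.20 and 10.29 in CK, and 10.18 and 10.22 in Control. Of 30 postsynaptic density and glutamate receptor genes 1 was higher and none lower. That gene was Shank2, a scaffold below Dlg4 in the density, at 7.86 and 7.95 in CK, against 7.51 and 7.51 in Control. Homer1, a partner of Shank proteins, measured 8.87 and 8.83 in CK, against 8.55 and 8.50 in Control, at an unadjusted p of 0.0514 in limma. None of 25 synaptic vesicle and release genes differed at that threshold, and their median was 0.03.

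Of 24 genes of the amyloid precursor family, secretases and degrading enzymes, 1 was higher and none lower at an unadjusted p under 0.05, with a median of 0.04. It was Mmp9, a matrix protease able to cut amyloid beta, with a difference of 0.51 among dim values that was 0.30 without Control replicate 1. Sorl1, the sorting receptor of the amyloid precursor, measured 8.61 and 8.70 in CK, against 8.45 and 8.36 in Control, a difference of 0.25. Of 27 peroxidases and ROS-forming oxidases 4 were higher at that threshold (3.25% of all probe sets were) and none lower, with a median of 0.03. Maob, the monoamine oxidase of astrocytes and serotonin neurons, measured 5.27 and 5.56 in CK, against 5.15 and 4.57 in Control. Its Control replicate 2 was dim, and the difference of 0.56 was 0.26 without that array. The other 3, the oxidase subunits Nox4 and Ncf4 and the neuronal globin Ngb, were dim on all 4 arrays. Of 16 hemoglobin and heme synthesis genes none was higher and 2 were lower, with a median of -0.01. The globin genes among them were all dim, and none was an adult alpha or beta globin gene. The list therefore does not describe adult hemoglobin.

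**Figure D4:**
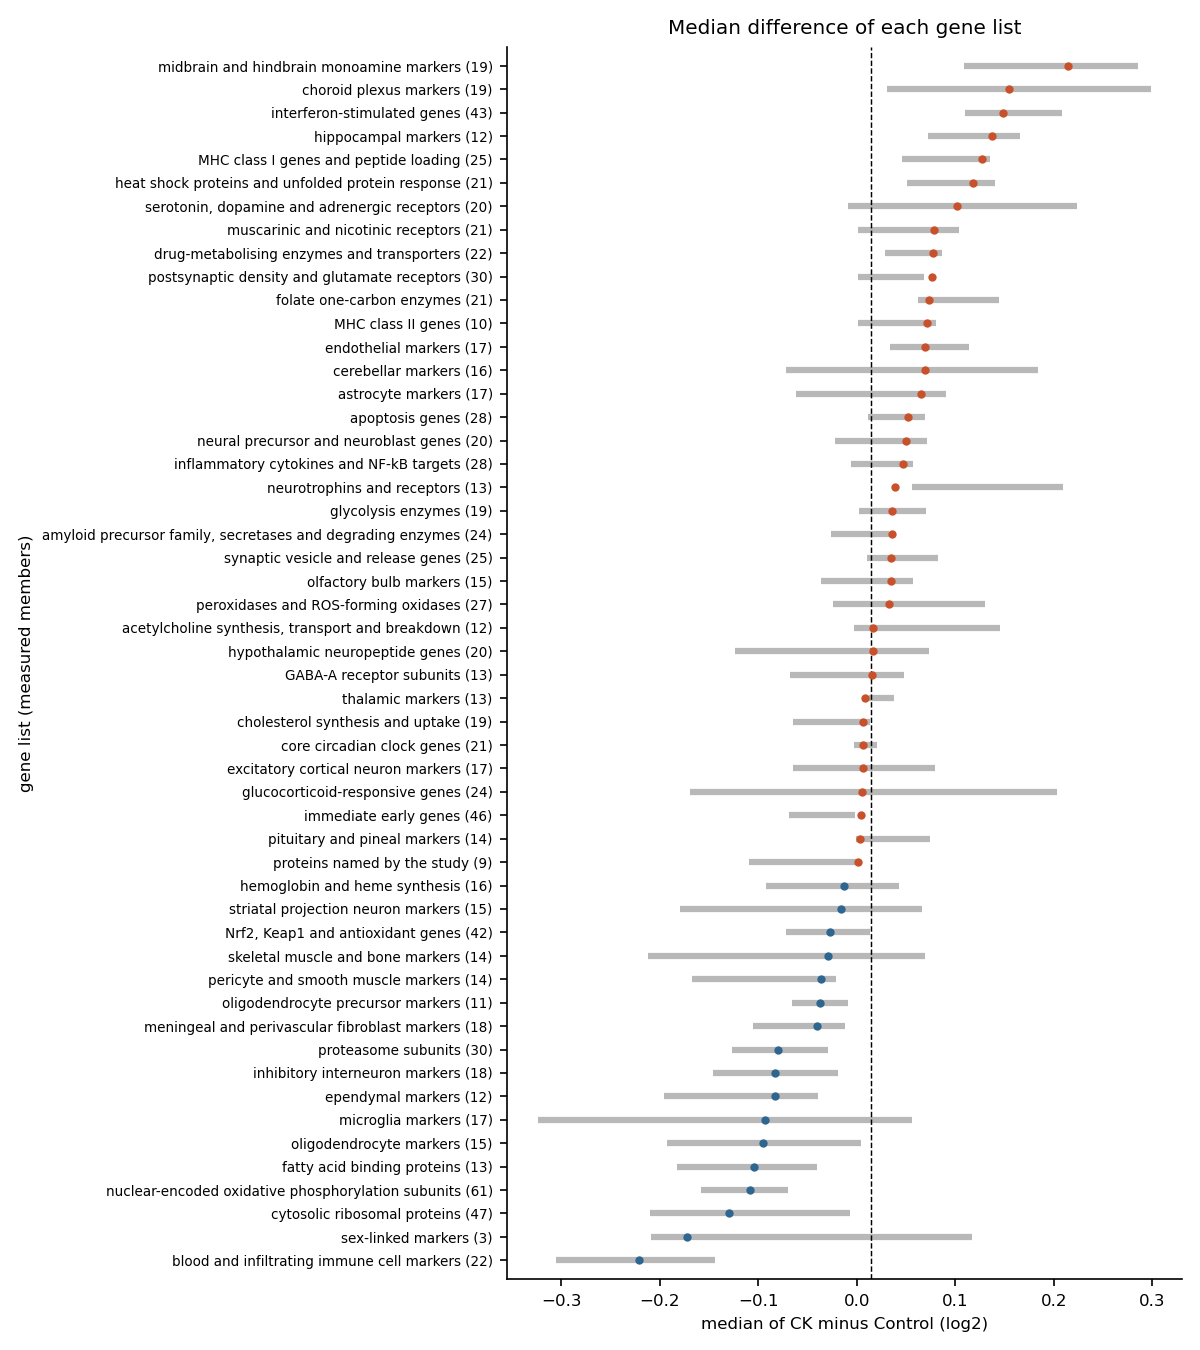
Median difference of CK minus Control (log2) of the measured members of each of the 52 gene lists, with the number of members in brackets. Points are orange above 0 and blue below 0, grey bars run over the medians obtained when each array was left out in turn, and the dashed line is the median over all probe sets, 0.01. The blood list lies lowest at -0.22 and the midbrain and hindbrain list highest at 0.21.

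Some markers of other tissues and cell types moved with the groups on single arrays. Blood and infiltrating immune cell markers had the lowest median, -0.22, and 12 of 22 had both CK arrays below the Control arrays (54.5%, against 15.7% of all probe sets). At an unadjusted p under 0.05, 2 were lower, S100a8 and Cd4 (1.92% of all probe sets were). S100a8, a neutrophil calcium-binding protein, measured 2.06 and 1.40 in CK, against 3.71 and 2.17 in Control. Alas2, the erythroid enzyme of heme synthesis, measured 4.76 and 4.83 in CK, both dim, against 5.93 and 4.91 in Control. Its unadjusted p was 0.0851 in limma. Control replicate 1 was high in S100a8 and Alas2, and without it their differences were -0.44 and -0.11. Cd4 measured 4.58 and 4.36 in CK, against 4.82 and 4.84 in Control. Its difference of -0.36 was -0.47 to -0.25 when each array was left out in turn. The list averaged 3.33 and 3.36 in CK, against 3.74 and 3.42 in Control, and 18 of the 22 members, the T cell marker Cd4 among them, were dim. How much blood the samples held was not tested as a part of any difference.

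Choroid plexus markers had a median of 0.15. At an unadjusted p under 0.05, none of 19 was lower (1.92% of all probe sets were) and 2 were higher (3.25% were). These were Kcne2, a potassium channel subunit, with 3.87 and 4.10 in CK, against 3.39 and 3.42 in Control, and Steap1, with 3.81 and 3.77 in CK, against 3.23 and 3.29 in Control, both dim. Ttr, the transthyretin gene that defines this tissue, measured 11.10 and 11.16 in CK, and 10.56 and 11.19 in Control, with overlap. Its low value was on Control replicate 1, without which the difference was -0.06. The list averaged 5.05 and 5.18 in CK, against 4.81 and 5.09 in Control, and how much choroid plexus the samples held was not tested as a part of the difference in Plvap.

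Midbrain and hindbrain monoamine markers had the highest median, 0.21, and 7 of 19 had both CK arrays above the Control arrays, (36.8%, against 18.4% of all probe sets), while 1 was lower and none higher at an unadjusted p under 0.05. Slc18a2, the vesicular monoamine transporter, measured 5.41 and 6.26 in CK, against 5.35 and 5.11 in Control, a difference of 0.61 that was 0.18 without CK replicate 2. The lower member was Pitx3, a factor of dopamine neurons, with a difference of -0.47 among dim values. The list averaged 4.98 and 5.27 in CK, against 5.06 and 4.90 in Control, so the list mean was high on CK replicate 2 only and its groups overlapped.

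The oxidative phosphorylation, ribosomal and proteasome lists had medians below 0, with no member at an unadjusted p under 0.05. Of 61 nuclear-encoded oxidative phosphorylation subunits 26 had both CK arrays below the Control arrays (42.6%, against 15.7% of all probe sets) and 1 had both above, with a median of -0.11 that was -0.16 to -0.07 when each array was left out in turn. Ndufb2, a complex I subunit, measured 7.30 and 7.28 in CK, against 7.61 and 7.57 in Control. Cox6b1, a complex IV subunit, measured 9.41 and 9.30 in CK, against 9.57 and 9.66 in Control. Of 47 cytosolic ribosomal protein genes 17 had both CK arrays below (36.2%) and none above, with a median of -0.13 that was -0.01 without Control replicate 2. Rps26 measured 8.52 and 8.46 in CK, against 8.64 and 8.80 in Control. The 30 proteasome subunits had a median of -0.08, and -0.03 without Control replicate 2. The ribosomal list averaged 9.03 and 8.98 in CK, against 9.02 and 9.20 in Control, so Control replicate 2 was the array that differed from the other 3.

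Heat shock and unfolded protein response genes had a median of 0.12, and 9 of 21 had both CK arrays above the Control arrays (42.9%, against 18.4% of all probe sets), with none at an unadjusted p under 0.05. Hspa5, the chaperone BiP of the endoplasmic reticulum, measured 9.05 and 9.15 in CK, against 8.71 and 8.85 in Control. Xbp1, a transcription factor of the same response, measured 7.42 and 7.48 in CK, against 7.18 and 7.25 in Control. The median was 0.05 without Control replicate 2 and 0.05 with medians centred.

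**Figure D5:**
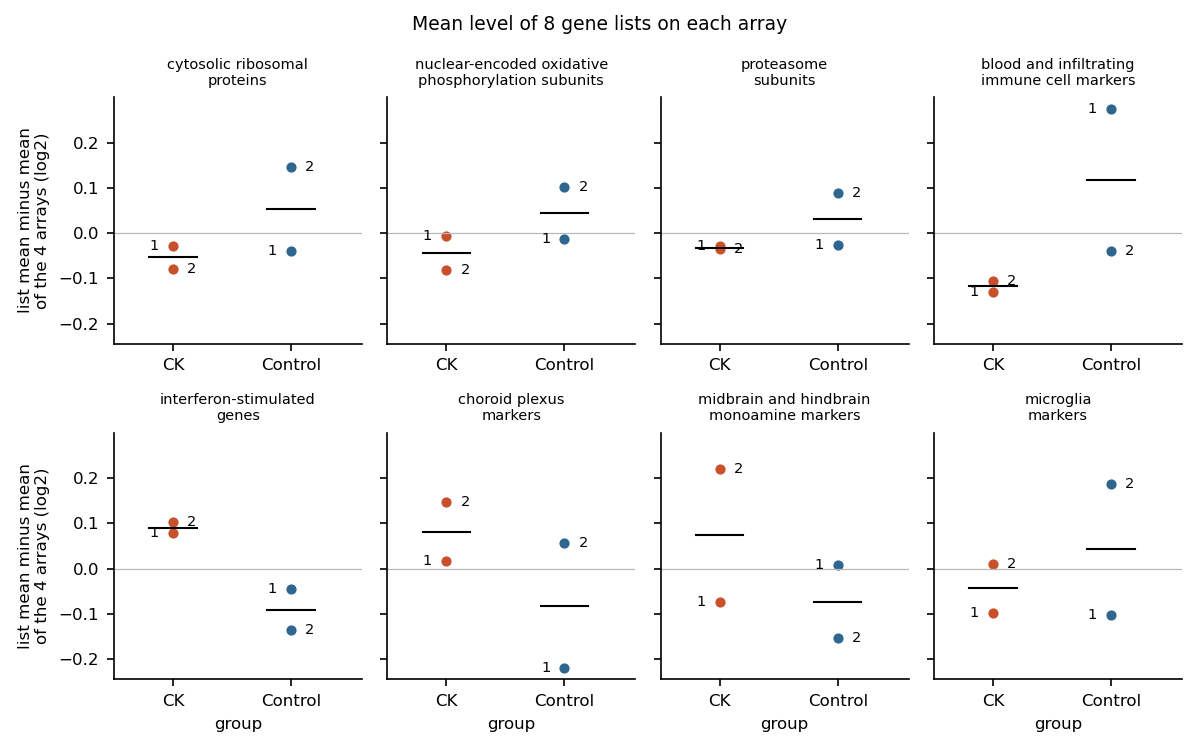
Mean level of 8 gene lists on each array, minus the mean of the 4 arrays (log2). Orange points are CK and blue points Control, with the replicate number beside each, and black bars are group means. The ribosomal list separates Control replicate 2 from the other arrays, the blood list separates Control replicate 1, and the interferon list separates the groups.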

How the data were processed

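Total RNA of mouse brain was extracted with Trizol, biotin-labelled and hybridised to Affymetrix arrays by the authors, who deposited log2 expression values per probe set after RMA (background correction, quantile normalization and median polish; its version is not stated). The labels describe cRNA and the methods random priming, and neither names a genome build. Array files were not used here, so scan and slide could not be tested as batches. Precision is limited by the number of arrays. Of the 29129 rows, 22206 were transcript probe sets and 5222 were negative controls. A single gene symbol in the platform annotation was carried by 19572 transcript probe sets, with symbols matched to RefSeq (GRCm38.p6). The other 2634 carried no single symbol, and those with none and with several were not counted apart. Several probe sets were present for 55 genes, each kept.

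The deposited log2 values of the 4 CK and Control arrays were fitted by lmFit and eBayes (limma 3.58.1, R 4.3.3; 2 residual and 4.80 prior degrees of freedom), p-values were adjusted by Benjamini-Hochberg over the 19572 probe sets, and no filter was used. The code was tested on simulated data with 200 changed probe sets of 19572. P-values measure only the spread between these samples. Genes were named by rule: the 12 largest differences in each direction in the screen that did not overlap and were not dim, without predicted genes, receptors of smell and small RNAs (10 met it in the lower direction), up to 4 genes with the smallest p of each of the 52 lists, and all genes of proteins the study followed. The members, lists and rules were chosen with earlier results of these data known, and genes named outside the rule (the further Srp54, cholinergic and cell type genes among them) were chosen after their values were seen. Alternatives were 3 other scalings, 2 filters on dim probe sets, 1 probe set per gene, other variance settings, all 6 arrays, a replicate block, each array left out, a 2-fold screen and the methods' t-test. Sequences were not used here, so motifs and protein identity were not examined.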

Additional observations from a re-analysis of the deposited data

Results flagged for a closer look

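Probe sets without a single gene symbol were outside the comparison. Of the 2634, 122 had an unadjusted p under 0.05 and 30 were in the screen, none with an adjusted p below 0.955 in limma. Among those that were not dim and did not overlap, 5 had levels above the Control arrays, and they were looked at after their values were seen. TC1200000671.mm.2 had the largest difference, 1.33, with 5.46 and 5.30 in CK, against 3.69 and 4.41 in Control. TC1200000459.mm.2 had 0.67 and, on all 4 arrays, the same values as Fam177a2, so it adds no further measurement. The other 3 had differences of 0.71, 0.62 and 0.60, with levels between 5.05 and 5.60 in CK.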

How the results depend on the processing

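The number of probe sets at an adjusted p under 0.05 was 0 in limma (1012 at an unadjusted p under 0.05, and 978 by the methods' t-test, with 0 after adjustment), and it was 1, Fabp7, with dim probe sets left out, with those above the median mean only and with eBayes with trend. The count at an unadjusted p under 0.05 was 537 and 546 with the 2 filters, 280 with all 6 arrays in the fit and 573 to 2111 when each array was left out in turn, highest without Control replicate 1 and lowest without CK replicate 2. The screen of 208 held 33 and 30 probe sets with the 2 filters, 9 at 2-fold, 58 by the methods' t-test and 377 to 940 when each array was left out; without Control replicate 2 it held 443, of which 116 were shared with the 208. These fits take the lone array of a group to vary like the other group. Higher probe sets made up 63.9% of the screen, but 36.0% with medians centred, 47.1% with quantile normalization, 47.1% with cyclic loess, 46.5% without Control replicate 2 and 75.0% without Control replicate 1; the cause was not tested. Same-numbered arrays do not pair (correlation of deviations -0.0062), and with the replicate block 1091 probe sets had an unadjusted p under 0.05, 235 were in the screen and 0 passed adjustment. Of the 102 genes named, 89 kept their direction in all settings run. With medians centred the difference turned to -0.022 for Dlg4, -0.038 for Keap1, -0.067 for Syp and -0.016 for Chrm2. Leaving out an array gave -0.32 to 0.23 for H2-D1, -0.13 to 0.039 for B2m, -0.33 to 0.070 for Fabp5, -0.094 to 0.20 for Chrm2, -0.027 to 0.17 for Chrm3, -0.0020 to 0.17 for App, -0.18 to 0.35 for Bace1, -0.17 to 0.23 for Keap1, -0.029 to 0.032 for Syp, -0.044 to 0.21 for Ppp2r3c, -0.084 to 0.048 for Prorp and -0.060 to 0.57 for Ttr. For 34 named genes, Dlg4 among them, the difference kept its direction when arrays were left out but was over 1.5 times smaller without 1 array. That array was Control replicate 2 for 13 of them, CK replicate 2 for 9, Control replicate 1 for 6 and CK replicate 1 for 6. Beside those given with the genes, the difference was 0.39 for Irf9, 0.44 for Fhit, 0.40 for Ier3 and -0.22 for Nfe2l2 without CK replicate 2. It was -0.55 for Upp2, -0.32 for Npas4, -0.30 for Pitx3 and 0.25 for Ncf4 without CK replicate 1. Without Control replicate 2 it was 0.32 for Iigp1, 0.35 for Apaf1 and -0.15 for Rps26. The direction of the list medians under 0.1 in size is not settled by these arrays.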

Other observations

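Of the probe sets without a single gene symbol that were in the screen, not dim and without overlap, the brightest were lower in CK. TC0700003909.mm.2 measured 9.33 and 10.01 in CK, against 11.44 and 10.87 in Control, a difference of -1.48 (adjusted p of 0.955 in limma), and TC0700003908.mm.2 beside it differed by -1.35. TC1100000339.mm.2 measured 10.02 and 10.43 in CK, against 11.42 and 11.04 in Control, a difference of -1.0, with nearly the same values on a second probe set. The SCOP arrays read 11.42 and 11.39 on the first and 11.58 and 10.93 on the second, within or above the Control values apart from the last. No gene name is given to them here.

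The following genes of regional and metabolic lists were named for small p-values within their lists, among values that were mostly dim. Dsp, a desmosomal protein found in dentate granule cells, measured 4.60 and 5.02 in CK, against 3.93 and 3.55 in Control, a difference of 1.07 (adjusted p of 0.935 in limma) and the only one of 12 hippocampal markers at an unadjusted p under 0.05. Cyp2e1, an ethanol-metabolising cytochrome, measured 3.06 and 3.05 in CK, against 3.77 and 3.60 in Control. Rgs9, a regulator of G-protein signalling in striatal neurons, was brighter, at 7.27 and 7.16 in CK, against 7.54 and 7.62 in Control, a difference of -0.37 (adjusted p of 0.935 in limma). It was the only striatal projection neuron marker at an unadjusted p under 0.05, and that list went both ways. Drd1 differed by -0.31 and Rasd2 by 0.26, each without overlap between the groups. Avp, the vasopressin gene, measured 6.59 and 6.77 in CK, against 6.40 and 6.17 in Control. The folate pathway enzyme gene Mthfd1 measured 5.80 and 5.79 in CK, against 5.53 and 5.29 in Control. Fgf2 and Ntf5, a growth factor and a neurotrophin, differed by 0.52 and 0.39 among dim values.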
